A study of Arabidopsis thaliana with 24 samples.

Results

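The 10 genes described here encode the kinases of the SnRK1 complex of Arabidopsis thaliana and genes widely used as readouts of sugar starvation. They were taken by locus identifier from the 32833 loci counted in every library. The 2 kinases are KIN10 (AT3G01090, chr3:31145-34670, minus strand) and KIN11 (AT3G29160, chr3:11128620-11132105, minus). The starvation markers are DIN6 (AT3G47340, chr3:17437840-17441431, minus), DIN10 (AT5G20250, chr5:6833564-6836862, plus), DIN1 (AT4G35770, chr4:16944878-16946266, plus) and SEN5 (AT3G15450, chr3:5212984-5214124, plus). Trehalose metabolism is covered by TPS8 (AT1G70290, chr1:26470795-26474833, minus) and TPS10 (AT1G60140, chr1:22176934-22181740, minus), and transcription by bZIP1 (AT5G49450, chr5:20051829-20052735, plus) and bZIP63 (AT5G28770, chr5:10796457-10798305, minus). Positions are those of the RefSeq annotation of TAIR10.1. All 10 genes passed the filter on low counts and are among the 21290 loci tested. DIN6, DIN10 and SEN5 overlap a gene on the opposite strand, which stranded counting keeps apart, and KIN10 overlaps AT3G01100 on its own strand, where shared reads cannot be assigned.

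The study followed gene expression during lateral root induction with and without knock-down of TOR, in 24 RNA-seq libraries that form 8 groups of 3. One genotype is the line UB10pro>>amiR-TOR, called amiR-TOR here, in which estradiol induces an artificial microRNA against the protein kinase gene TOR. The other is the wild type Col-0. In all groups, seedlings aged 7 d spent 24 h on 10 µM NPA, an inhibitor of auxin transport, and then 24 h on NPA with 10 µM estradiol or with its solvent DMSO. For the last 6 h they were either moved to 10 µM of the auxin IAA, again with estradiol or DMSO, or left on the NPA plates. The treatment label goes on to name DEX and further harvest times, which the design text of the series does not have, and that passage was not used. Per genotype the groups are thus IAA with estradiol, IAA, NPA with estradiol, and NPA. Each library pooled about 200 segments cut from the lower part of the roots. The labels do not say how many independent lines were used, nor whether replicates came from separate experiments, so the p-values below measure the spread between these libraries, which may be partly technical.

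SnRK1 is the plant relative of yeast SNF1 and animal AMPK, a kinase complex that is active when sugar or energy is short and restrained when sugar, or the sugar signal trehalose 6-phosphate, is plentiful. Active SnRK1 raises the transcription of genes for the breakdown of amino acids, sugars and cell components, in part through bZIP transcription factors of groups C and S1. TOR works in the opposite direction: it promotes growth and protein synthesis when nutrients and sugar are at hand, and SnRK1 can inhibit it. The activity of SnRK1 is set largely by phosphorylation and by its bound partners, and transcript levels of its subunits do not measure it.

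Counts assigned to genes lay between 8589833 and 40494513 per library. In 5 libraries more than 20% of reads were unmapped, against 1.56% to 12.0% in the other 19: in amiR-TOR this is replicate 1 on IAA with estradiol, and in Col-0 replicates 2 and 3 on IAA with estradiol, 1 on IAA and 1 on NPA. TOR itself had log2 fold changes for estradiol of -1.27 under IAA and -1.08 under NPA in amiR-TOR, with no overlap between groups, and it was called in neither comparison in Col-0. All 6 root markers were detected. Their summed level, in CPM (counts scaled to the size of each library), was 78.7 to 115.2 in amiR-TOR on IAA with estradiol, 83.0 to 94.6 on IAA, 125.9 to 146.5 on NPA with estradiol and 96.4 to 101.5 on NPA. In Col-0 it was 55.3 to 67.5, 61.0 to 77.9, 106.3 to 110.0 and 79.0 to 82.4 CPM in the same order. It was lower on IAA than on NPA in all 4 comparisons and higher with estradiol on NPA in both genotypes, without overlap, while on IAA the ranges with and without estradiol overlapped. Single root markers did not all follow this sum. COBL9 (-3.70 to -2.41) and WER (-2.31 to -0.88) were called lower on IAA in all 4 comparisons. In amiR-TOR without estradiol PLT1 (0.46) and SCR (0.40) were called higher on IAA. In Col-0 without estradiol only COBL9 and WER were called. Of 6 shoot markers, 3 lay under 1 CPM on average, but the 6 together varied widely with treatment. Their summed level was 4.03 to 5.49 CPM in amiR-TOR on IAA with estradiol, 34.4 to 46.6 CPM on IAA, 7.85 to 23.3 CPM on NPA with estradiol and 76.1 to 92.9 CPM on NPA. In Col-0 the ranges of the same groups were 13.3 to 24.3, 19.8 to 30.3, 36.0 to 75.1 and 73.8 to 111.0 CPM. The sum of the shoot markers thus ran lower with estradiol and lower on IAA, with overlapping ranges for estradiol in Col-0. Single shoot markers differed in direction. In amiR-TOR CAB3 was called higher with IAA without estradiol (1.27). For estradiol in amiR-TOR on NPA CAB3 gave 1.07, not called, while RBCS1A was called lower (-3.31). Both sums moved in the same comparisons as many of the genes below, and their part in those differences was not tested. In pooled tissue, fewer cells of a type and less RNA per cell cannot be told apart.

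KIN10, the main catalytic subunit of SnRK1, had the narrowest spread of group means of the 10 genes, with the highest 1.08-fold the lowest against 2.33-fold to 5.74-fold for the others. It lay between 49.8 and 59.2 CPM in all 24 libraries, and its group means ran only from 57.6 CPM in amiR-TOR on IAA with estradiol down to 53.5 CPM in Col-0 on IAA. None of the 12 comparisons of 2 groups called it, where a gene counts as called at a p under 0.05 in the quasi-likelihood test of edgeR after Benjamini-Hochberg adjustment over all tested genes. Its log2 fold changes there were between -0.03 and 0.09, its lowest adjusted p was 0.336 (edgeR quasi-likelihood), and 0 of the 12 had an unadjusted p under 0.05. For estradiol in amiR-TOR the log2 fold change was 0.07 under IAA (95% normal interval from the SE, -0.07 to 0.20) and 0.06 under NPA (-0.08 to 0.19). For IAA against NPA in Col-0 without estradiol the interval was -0.15 to 0.12.

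KIN11, the other catalytic subunit expressed in most tissues, rose with IAA in both genotypes, with and without estradiol. In amiR-TOR it had 119.6, 106.3 and 86.8 CPM on IAA with estradiol and 127.8, 113.6 and 131.5 CPM on IAA, against 56.2, 57.1 and 55.7 CPM on NPA with estradiol and 55.2, 56.8 and 52.2 CPM on NPA. In Col-0 it had 155.3, 108.4 and 112.8 CPM on IAA with estradiol and 126.5, 123.5 and 125.3 CPM on IAA, against 54.3, 53.5 and 53.9 CPM on NPA with estradiol and 52.4, 56.1 and 63.4 CPM on NPA. Every IAA library lay above every NPA library, the lowest of them being the third amiR-TOR library with estradiol. The log2 fold change for IAA was 0.89 ± 0.12 (SE) in amiR-TOR with estradiol (edgeR adjusted p = 2.27e-06), 1.18 ± 0.12 in amiR-TOR without it (1.85e-08), 1.22 ± 0.12 in Col-0 with estradiol (8.69e-09) and 1.13 ± 0.12 in Col-0 without it (2.22e-08). These calls held under each alternative processing tried. Per kilobase of exon, the scale on which 2 genes can be compared, KIN11 averaged 59.2 CPM per kb on IAA and 27.1 on NPA in Col-0, and KIN10 22.0 and 22.2. Neither estradiol nor genotype was called for KIN11. The nearest was the lower level in amiR-TOR than in Col-0 on IAA with estradiol, -0.27 ± 0.12, with overlapping groups (edgeR adjusted p = 0.0745), which was called with RLE size factors (-0.33), with DESeq2 (-0.33) and when strand was disregarded (-0.31). Its interaction of IAA with estradiol was -0.30 (interval -0.63 to 0.03) in amiR-TOR and 0.09 (-0.23 to 0.42) in Col-0.

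**Figure D1:**
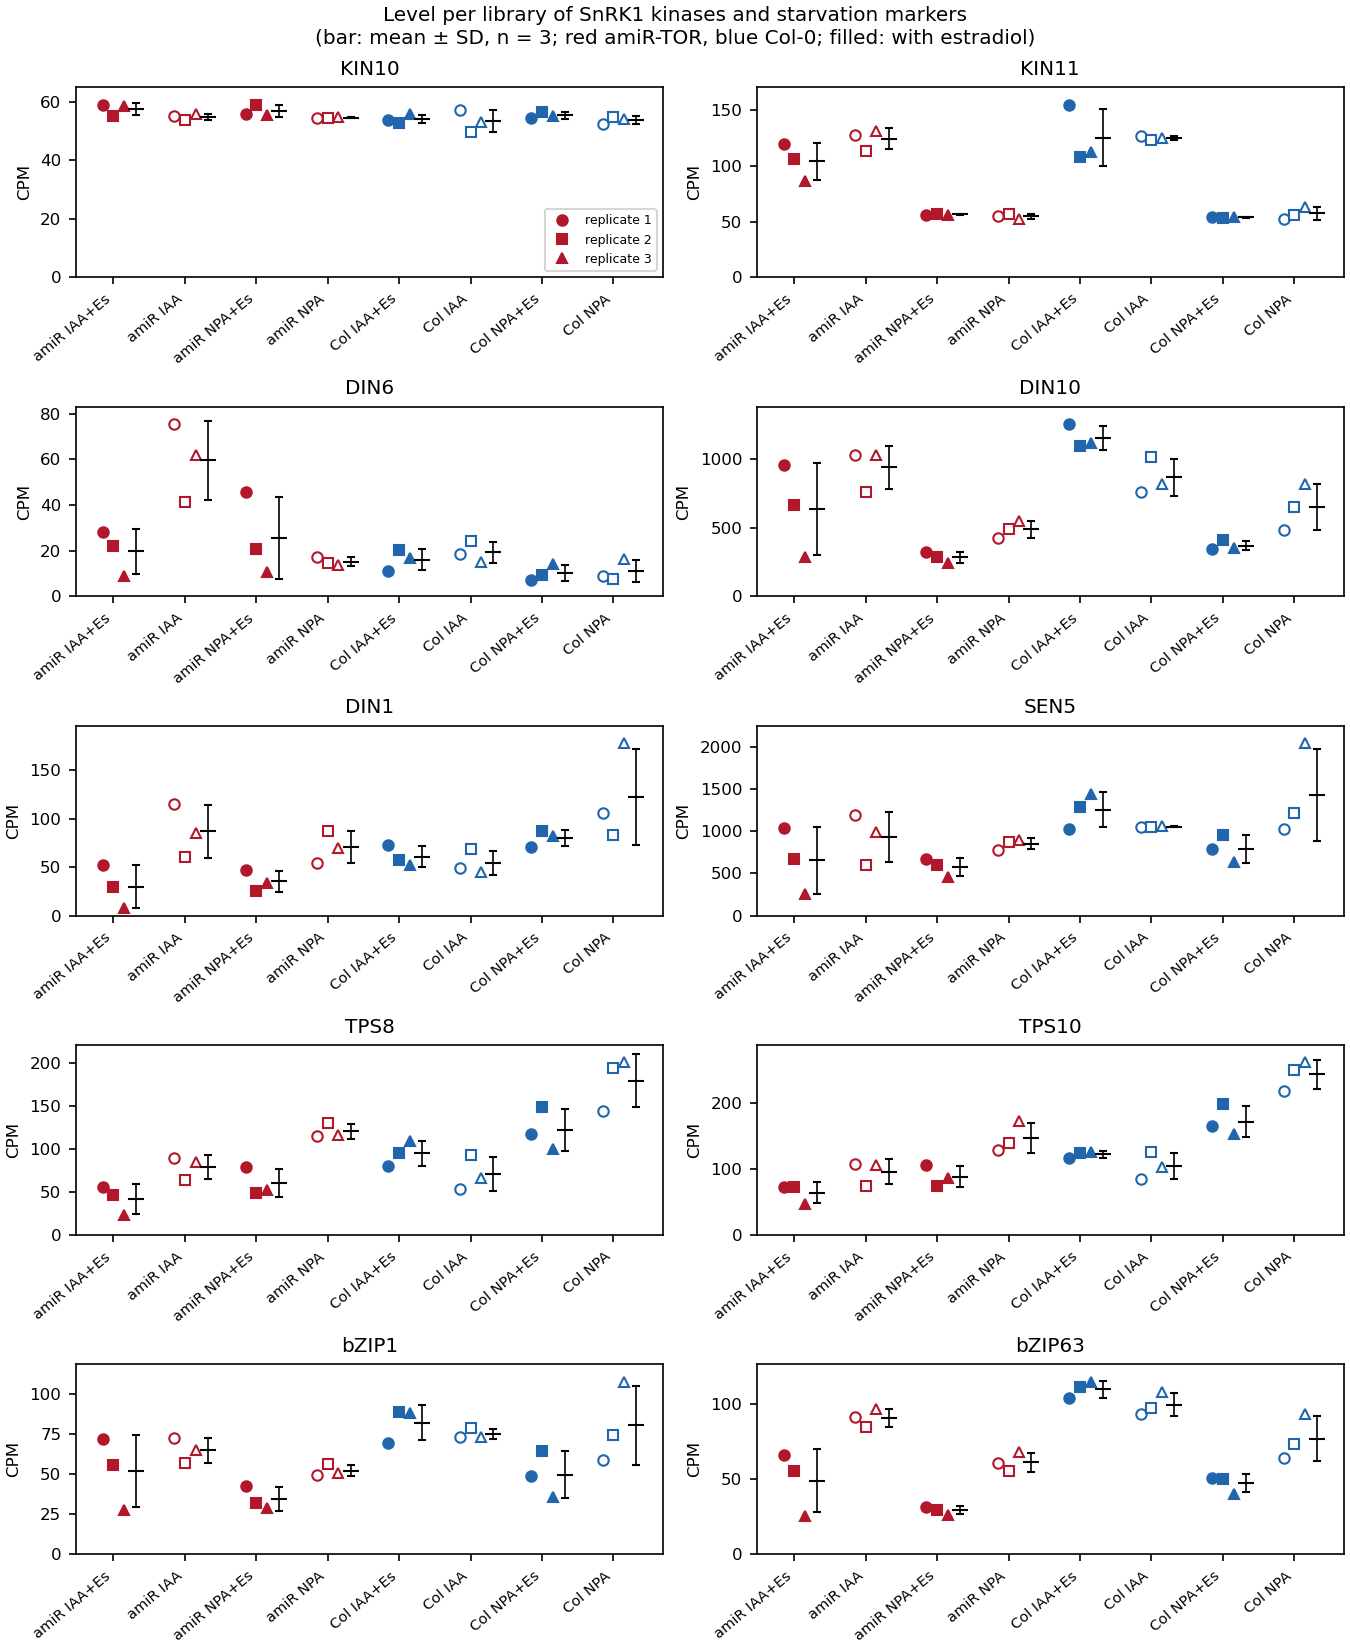
Level in CPM (vertical axes, starting at 0) of each of the 10 genes in each of the 24 libraries, with 1 marker shape per replicate and the group mean ± SD (n = 3) beside the points; amiR is amiR-TOR, Col is Col-0 and Es is estradiol. KIN10 is level across the groups, KIN11 is high in the 4 IAA groups, and DIN6 is highest in amiR-TOR on IAA without estradiol.

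DIN6 (also named ASN1), the dark-induced asparagine synthetase that stores nitrogen as asparagine when carbon is short, followed a pattern of its own. In amiR-TOR it had 28.2, 22.2 and 8.92 CPM on IAA with estradiol, 75.5, 41.1 and 61.9 CPM on IAA, 45.6, 20.8 and 10.6 CPM on NPA with estradiol, and 17.4, 14.5 and 13.7 CPM on NPA. In Col-0 the values were 11.1, 20.2 and 16.7 CPM on IAA with estradiol, 18.4, 24.4 and 15.3 CPM on IAA, 7.32, 9.52 and 14.3 CPM on NPA with estradiol, and 8.99, 7.42 and 16.5 CPM on NPA. The 3 libraries of amiR-TOR on IAA without estradiol were thus above every other library but replicate 1 of amiR-TOR on NPA with estradiol, which lay above replicate 2 of that group. IAA raised DIN6 in amiR-TOR without estradiol, by 1.98 ± 0.48 (SE) on the log2 scale (edgeR adjusted p = 0.00211), a call that held under each alternative tried. The IAA effect was not called in the other 3 comparisons, with -0.37 in amiR-TOR with estradiol, 0.59 in Col-0 with estradiol and 0.83 in Col-0 without.

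Under IAA, DIN6 fell with estradiol in amiR-TOR by 1.61 ± 0.47 on the log2 scale (edgeR adjusted p = 0.0234), and without estradiol it was higher in amiR-TOR than in Col-0 by 1.64 ± 0.48 (0.0314). Neither pair of groups overlapped. The IAA effect in amiR-TOR was smaller with estradiol than without by -2.35 ± 0.67 (edgeR adjusted p = 0.0326), while the same interaction in Col-0 was -0.23 and was not called; the difference between these 2 interactions, -2.12, was not called either (adjusted p = 0.411). The calls rested on few libraries. Leaving out 1 library ended the estradiol call in 4 of 6 fits (without replicates 1 or 3 of amiR-TOR on IAA, or 2 or 3 on IAA with estradiol; -1.95 to -1.25 over the 6 fits), and fitting only the 2 groups compared ended it too (adjusted p = 0.0892). The genotype call was lost in 4 of 6 such fits (without replicates 1 or 3 of either group; 1.43 to 1.84), and the interaction in 8 of 12 (all but those without replicate 1 on IAA with estradiol, 2 on IAA, or 2 or 3 on NPA with estradiol; -2.73 to -1.66) and when only the 4 groups concerned were fitted (0.0946). On NPA with estradiol, DIN6 was higher in amiR-TOR than in Col-0 by 1.27 ± 0.48 with overlapping groups (edgeR adjusted p = 0.0495). This value fell to 0.58 without replicate 1 of amiR-TOR on NPA with estradiol (0.356), and the call was also lost without replicate 2 of that group or replicates 1 or 2 of Col-0 on NPA with estradiol, without the filter on low counts (0.0718), with strand disregarded (0.0564), with a term for the 5 libraries of high unmapped share (0.0528) and when only the 2 groups were fitted (0.140).

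The stretch upstream of DIN6 is shown because it alone among the 10 holds CACGTG, the G-box, whose core ACGT is what bZIP factors of groups C and S1 are known to bind; those of DIN10, TPS10 and bZIP63, each called in at least 6 of the 12 comparisons of 2 groups, are set beside it. Each line is the 250 bases before the annotated gene start, 5′ to 3′ on the gene's strand, from the RefSeq genome TAIR10.1, with 3 motifs in capitals: the core ACGT, the G-box, and TATCCA, which on the other strand reads TGGATA.
DIN6, chr3:17441432-17441681, minus strand: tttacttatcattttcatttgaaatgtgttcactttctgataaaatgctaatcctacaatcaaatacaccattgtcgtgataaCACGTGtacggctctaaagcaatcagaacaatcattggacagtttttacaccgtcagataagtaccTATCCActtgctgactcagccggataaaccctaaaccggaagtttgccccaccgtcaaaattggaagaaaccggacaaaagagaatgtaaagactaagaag
DIN10, chr5:6833314-6833563, plus strand: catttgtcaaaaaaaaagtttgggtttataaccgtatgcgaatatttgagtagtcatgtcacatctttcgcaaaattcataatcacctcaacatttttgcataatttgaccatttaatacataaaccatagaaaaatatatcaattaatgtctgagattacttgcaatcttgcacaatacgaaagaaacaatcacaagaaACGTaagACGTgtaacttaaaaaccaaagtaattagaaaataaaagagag
TPS10, chr1:22181741-22181990, minus strand: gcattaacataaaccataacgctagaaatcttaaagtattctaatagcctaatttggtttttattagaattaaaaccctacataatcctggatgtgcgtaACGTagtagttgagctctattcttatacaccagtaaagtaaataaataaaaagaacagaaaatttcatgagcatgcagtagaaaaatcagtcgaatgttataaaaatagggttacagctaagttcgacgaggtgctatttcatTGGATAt
bZIP63, chr5:10798306-10798555, minus strand: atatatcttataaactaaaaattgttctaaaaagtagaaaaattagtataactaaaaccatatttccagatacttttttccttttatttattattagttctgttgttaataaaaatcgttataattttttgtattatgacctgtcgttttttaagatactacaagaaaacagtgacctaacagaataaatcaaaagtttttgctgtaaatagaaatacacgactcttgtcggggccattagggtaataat
The letters were searched on both strands in windows of 300 bases, the 250 upstream and the 50 after the start, and each G-box also counts as an ACGT. The letters CACGTG were found in 1 of the 10 windows, that of DIN6, which holds it 167 bases before the gene start and again after it, beyond the stretch shown, and in 7.65% of 27561 windows of protein-coding genes. ACGT was in 6 of 10, against 49.9% of all windows, and the window of bZIP63 held none of the 3 motifs. TATCCA, an element known from sugar-repressed amylase genes of rice, was in 4 of 10 (DIN6, bZIP1, TPS10 and DIN1), against 16.1% of all. These are matches of letters, not measured binding.

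DIN10, a raffinose synthase-like protein of the seed imbibition family, was the most abundant of the DIN genes and rose with IAA in 3 of the 4 comparisons. In amiR-TOR it had 957.1, 664.5 and 290.2 CPM on IAA with estradiol against 323.6, 289.0 and 241.7 CPM on NPA with estradiol, and 1033, 759.2 and 1031 CPM on IAA against 423.8, 492.2 and 547.9 CPM on NPA. In Col-0 it had 1257, 1092 and 1117 CPM on IAA with estradiol against 345.6, 410.1 and 354.5 CPM on NPA with estradiol, and 763.6, 1018 and 817.0 CPM on IAA against 483.8, 650.6 and 815.5 CPM on NPA. In amiR-TOR with estradiol the groups overlapped through replicate 3 on IAA, and in Col-0 without estradiol through replicates 1 on IAA and 3 on NPA. The log2 fold change for IAA was 1.16 ± 0.28 (SE) in amiR-TOR with estradiol (edgeR adjusted p = 0.00221), 0.95 ± 0.28 in amiR-TOR without it (0.00686) and 1.64 ± 0.28 in Col-0 with it (4.49e-05). The first of these was lost when only the 2 groups were fitted (0.0809). In Col-0 without estradiol it was 0.41 ± 0.27 and was not called. The difference between the Col-0 effects, 1.23 ± 0.39, was called (edgeR adjusted p = 0.0467), but 10 of the 12 fits without 1 library lost it, all but those without replicate 2 on IAA or 1 on NPA (1.03 to 1.40), and it was also lost without the filter on low counts (0.0709) and with the term for unmapped share (0.0659).

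On NPA, DIN10 fell with estradiol in both genotypes, by 0.78 ± 0.28 on the log2 scale in amiR-TOR (edgeR adjusted p = 0.0355) and by 0.81 ± 0.28 in Col-0 (0.0404), without overlap of the groups. In amiR-TOR the call was lost in 4 of 6 fits (without replicates 2 or 3 of either group; -0.88 to -0.67) and without the filter on low counts (0.0573), and in Col-0 in 5 of 6 (all but the one without replicate 1 on NPA; -0.98 to -0.62), without the filter (0.0656) and with the term for unmapped share (0.0548). On IAA with estradiol, DIN10 was lower in amiR-TOR than in Col-0 by -0.86 ± 0.28 (edgeR adjusted p = 0.0193), lost without replicate 3 of amiR-TOR (-0.51, 0.0580), without replicate 1 of Col-0 (-0.79, 0.0589) and when only the 2 groups were fitted (0.177).

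DIN1 (also named SEN1), a senescence-associated protein induced by darkness, had 52.6, 29.3 and 8.31 CPM in amiR-TOR on IAA with estradiol, 114.7, 60.9 and 84.8 CPM on IAA, 46.9, 25.5 and 33.6 CPM on NPA with estradiol, and 54.7, 87.6 and 69.9 CPM on NPA. In Col-0 it had 72.5, 57.4 and 52.0 CPM on IAA with estradiol, 49.3, 68.3 and 45.1 CPM on IAA, 70.7, 87.0 and 81.8 CPM on NPA with estradiol, and 105.9, 82.5 and 177.6 CPM on NPA. DIN1 was lowest in the amiR-TOR groups with estradiol, and 1 Col-0 library on NPA, replicate 3, stood above all others. It fell with estradiol in amiR-TOR under IAA, by 1.54 ± 0.45 on the log2 scale (edgeR adjusted p = 0.0244), and with IAA in Col-0 without estradiol, by 1.17 ± 0.45 (0.0299), in both cases without overlap. The estradiol call was lost in 4 of 6 fits (all but those without replicate 1 on IAA with estradiol or 2 on IAA; -2.22 to -1.09) and when only the 2 groups were fitted (0.215). The IAA call was lost without replicates 1 or 3 on IAA or replicate 3 on NPA (-1.39 to -0.80). Under NPA the estradiol effect in amiR-TOR, -1.01 ± 0.45, was not called, but it was when only the 2 groups were fitted (-1.07). On NPA with estradiol the difference of amiR-TOR from Col-0, -1.18, was not called either, though the groups did not overlap. It was called with DESeq2 (-1.17), with strand disregarded (-1.21) and when only the 2 groups were fitted (-1.21).

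SEN5, a protein of the aluminium-induced family whose transcript is used as a dark and starvation marker, was the most abundant of the 10 per kilobase of exon, with group means between 546.2 and 1359 CPM per kb, against 3.78 to 21.7 for DIN6, the least abundant. It had 1039, 675.1 and 251.5 CPM in amiR-TOR on IAA with estradiol and 1032, 1291 and 1446 CPM in Col-0 on IAA with estradiol, so the groups overlapped through their first replicates. This difference of -0.94 ± 0.36 on the log2 scale was the only call for SEN5 (edgeR adjusted p = 0.0471). Fits without 1 library lost it in 5 of 6 cases (all but the one without replicate 1 of amiR-TOR; -1.44 to -0.55), and it was also lost without the filter on low counts (0.0735), with the term for unmapped share (0.0705) and when only the 2 groups were fitted (0.232). Estradiol on NPA gave -0.57 ± 0.36 in amiR-TOR and -0.85 ± 0.36 in Col-0, neither called.

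TPS8 and TPS10 belong to class II of the trehalose phosphate synthase family, whose members are thought to act in regulation rather than in the synthesis of trehalose 6-phosphate, and of which several are induced by starvation. TPS10 was called in 10 of the 12 comparisons of 2 groups, lower each time. In amiR-TOR it had 73.1, 72.8 and 46.6 CPM on IAA with estradiol, 107.6, 73.7 and 105.7 CPM on IAA, 105.3, 73.9 and 86.2 CPM on NPA with estradiol, and 129.1, 139.7 and 172.3 CPM on NPA. In Col-0 it had 116.2, 124.7 and 125.9 CPM on IAA with estradiol, 84.6, 124.7 and 102.9 CPM on IAA, 164.2, 197.3 and 152.8 CPM on NPA with estradiol, and 217.4, 249.5 and 260.9 CPM on NPA. Col-0 on NPA was above all other groups, and each amiR-TOR group with estradiol lay below its Col-0 counterpart without overlap. With estradiol, the log2 difference of amiR-TOR from Col-0 was -0.93 ± 0.18 (SE) under IAA (edgeR adjusted p = 0.000425) and -0.96 ± 0.18 under NPA (0.000363). Without estradiol TPS10 was already lower in amiR-TOR on NPA, by -0.72 ± 0.18 (edgeR adjusted p = 0.00683), while on IAA the difference was -0.12 and not called. Estradiol itself lowered TPS10 in amiR-TOR on NPA by 0.73 ± 0.18 (edgeR adjusted p = 0.00340). These 4 calls held under each alternative tried.

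The other estradiol effects on TPS10 were smaller. In amiR-TOR on IAA it was -0.58 ± 0.18 (edgeR adjusted p = 0.0271), a call lost without replicates 1 or 3 on IAA or replicate 3 on IAA with estradiol (-0.74 to -0.40) and when only the 2 groups were fitted (0.106). In Col-0 on NPA it was -0.50 ± 0.18 (0.0481), lost in 4 of 6 fits (all but those without replicate 2 on NPA with estradiol or 1 on NPA; -0.61 to -0.42), without the filter on low counts (0.0615) and with the term for unmapped share (0.0511). IAA lowered TPS10 by 1.22 ± 0.18 on the log2 scale in Col-0 without estradiol (edgeR adjusted p = 4.22e-06) and by 0.61 ± 0.18 in amiR-TOR without estradiol (0.00654), calls that held under each alternative. With estradiol the IAA effect was -0.46 ± 0.18 in amiR-TOR (0.0453) and -0.49 ± 0.18 in Col-0 (0.0231). In amiR-TOR this call was lost without replicate 3 on IAA with estradiol (-0.28) or replicates 1 (-0.32) or 3 (-0.48) on NPA with estradiol, and when only the 2 groups were fitted (0.111), and in Col-0 without replicate 1 on IAA with estradiol (-0.45) or 2 on NPA with estradiol (-0.38). Both were lost with the term for unmapped share (0.0763 in amiR-TOR, 0.0742 in Col-0).

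TPS8 was called in 5 of the 12 comparisons, lower each time. In amiR-TOR it had 56.2, 46.4 and 23.3 CPM on IAA with estradiol, 89.6, 63.8 and 84.8 CPM on IAA, 79.4, 49.5 and 52.5 CPM on NPA with estradiol, and 115.2, 130.7 and 116.6 CPM on NPA. In Col-0 it had 80.1, 95.6 and 109.1 CPM on IAA with estradiol, 54.1, 93.0 and 66.5 CPM on IAA, 117.9, 149.2 and 100.6 CPM on NPA with estradiol, and 144.5, 194.1 and 200.9 CPM on NPA. The amiR-TOR groups with estradiol were the lowest, and each lay wholly below its group without estradiol and below Col-0 with estradiol. Estradiol lowered TPS8 in amiR-TOR by 0.93 ± 0.27 on the log2 scale under IAA (edgeR adjusted p = 0.0206) and by 1.00 ± 0.27 under NPA (0.00736). With estradiol, amiR-TOR differed from Col-0 by -1.18 ± 0.27 under IAA (edgeR adjusted p = 0.00208) and by -1.02 ± 0.27 under NPA (0.00648). IAA lowered TPS8 in Col-0 without estradiol by 1.34 ± 0.27 (edgeR adjusted p = 0.000235). Of these 5 calls, that for estradiol under IAA was lost without replicates 1 or 3 on IAA or replicate 3 on IAA with estradiol (-1.20 to -0.64) and when only the 2 groups were fitted (0.127), and the other 4 held under each alternative. On NPA, amiR-TOR without estradiol differed from Col-0 by -0.57, and estradiol in Col-0 gave -0.55. Neither was called, but both were when only the 2 groups were fitted (-0.54 and -0.56). IAA in amiR-TOR without estradiol gave -0.60, not called. It was called with RLE size factors (-0.65), with DESeq2 (-0.65), with strand disregarded (-0.67) and when only the 2 groups were fitted (-0.65).

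bZIP63, a group C bZIP factor that SnRK1 phosphorylates, fell with estradiol in amiR-TOR and rose with IAA in 3 of the 4 comparisons. In amiR-TOR it had 66.3, 55.4 and 25.8 CPM on IAA with estradiol, 91.8, 84.7 and 96.8 CPM on IAA, 31.8, 29.7 and 26.5 CPM on NPA with estradiol, and 60.6, 55.3 and 68.2 CPM on NPA. In Col-0 it had 103.9, 111.4 and 115.0 CPM on IAA with estradiol, 93.5, 97.4 and 108.4 CPM on IAA, 51.1, 50.4 and 40.5 CPM on NPA with estradiol, and 64.1, 73.7 and 93.5 CPM on NPA. All 6 amiR-TOR libraries with estradiol lay below their counterparts without it and below Col-0 with it. Estradiol lowered bZIP63 in amiR-TOR by 0.89 ± 0.21 on the log2 scale under IAA (edgeR adjusted p = 0.00629) and by 1.06 ± 0.22 under NPA (0.000911), and in Col-0 by 0.71 ± 0.21 under NPA (0.0229). Under NPA the amiR-TOR call held under each alternative, the call under IAA was lost when only the 2 groups were fitted (0.142), and that in Col-0 was lost without replicate 3 on NPA with estradiol (-0.60) or on NPA (-0.55). With estradiol, amiR-TOR differed from Col-0 by -1.17 ± 0.21 under IAA (edgeR adjusted p = 0.000307), which held under each alternative, and by -0.69 ± 0.22 under NPA (0.0188), which was lost without replicate 3 of amiR-TOR (-0.62) or replicates 1 (-0.63) or 2 (-0.64) of Col-0.

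IAA raised bZIP63 by 0.74 ± 0.22 on the log2 scale in amiR-TOR with estradiol (edgeR adjusted p = 0.00922), by 0.57 ± 0.21 in amiR-TOR without it (0.0293) and by 1.22 ± 0.21 in Col-0 with it (5.72e-05), and gave 0.37 ± 0.21 in Col-0 without it, not called. The groups overlapped in amiR-TOR with estradiol, through replicate 3 on IAA. They also overlapped narrowly in Col-0 without estradiol, through replicates 1 on IAA (93.48 CPM) and 3 on NPA (93.51 CPM). The Col-0 call held under each alternative. In amiR-TOR with estradiol it was lost without replicate 1 on IAA with estradiol (0.47) and when only the 2 groups were fitted (0.143), and without estradiol it was lost in 4 of 6 fits (all but those without replicate 2 on IAA or 3 on NPA; 0.50 to 0.65) and with strand disregarded (0.0610). bZIP1, a group S1 factor whose transcript is repressed by sugar, had 69.6, 88.5 and 88.2 CPM in Col-0 on IAA with estradiol against 49.0, 64.5 and 35.7 CPM on NPA with estradiol, with every IAA library higher. This was its only call, 0.73 ± 0.27 (edgeR adjusted p = 0.0279), and it was lost in 4 of 6 fits (all but those without replicate 1 on IAA with estradiol or 2 on NPA with estradiol; 0.53 to 0.96) and with the term for unmapped share (0.104). Its estradiol effects in amiR-TOR were -0.33 under IAA and -0.60 under NPA, neither called. In Col-0 under NPA the estradiol effect on bZIP1 was -0.69, also not called. DESeq2 called this value in Col-0 (-0.71), and the fit of only the 2 groups called that in amiR-TOR under NPA (-0.66).

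For IAA against NPA, some of the 10 were higher and some lower in each comparison, and the share called was close to or below that of all genes. The IAA and NPA plates differ in both agents. In amiR-TOR with estradiol 4 of the 10 were called, 3 higher and 1 lower, where 39.2% of all tested genes were called. In amiR-TOR without estradiol the count was 5, 4 higher and 1 lower, against 52.8% of all genes. In Col-0 with estradiol it was 5, 4 higher and 1 lower, against 59.3%, and without it 4, 1 higher and 3 lower, against 63.3%. The median log2 fold changes of the 10 were 0.10, 0.31, 0.63 and -0.05 in that order, and those of all tested genes 0.01, 0.02, -0.02 and -0.04. KIN11 was the only one of the 10 called higher in all 4, and TPS10 the only one called lower in all 4. With the term for unmapped share, the count in Col-0 with estradiol was 3, and when only the 2 groups were fitted, that in amiR-TOR with estradiol was 1.

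**Figure D2:**
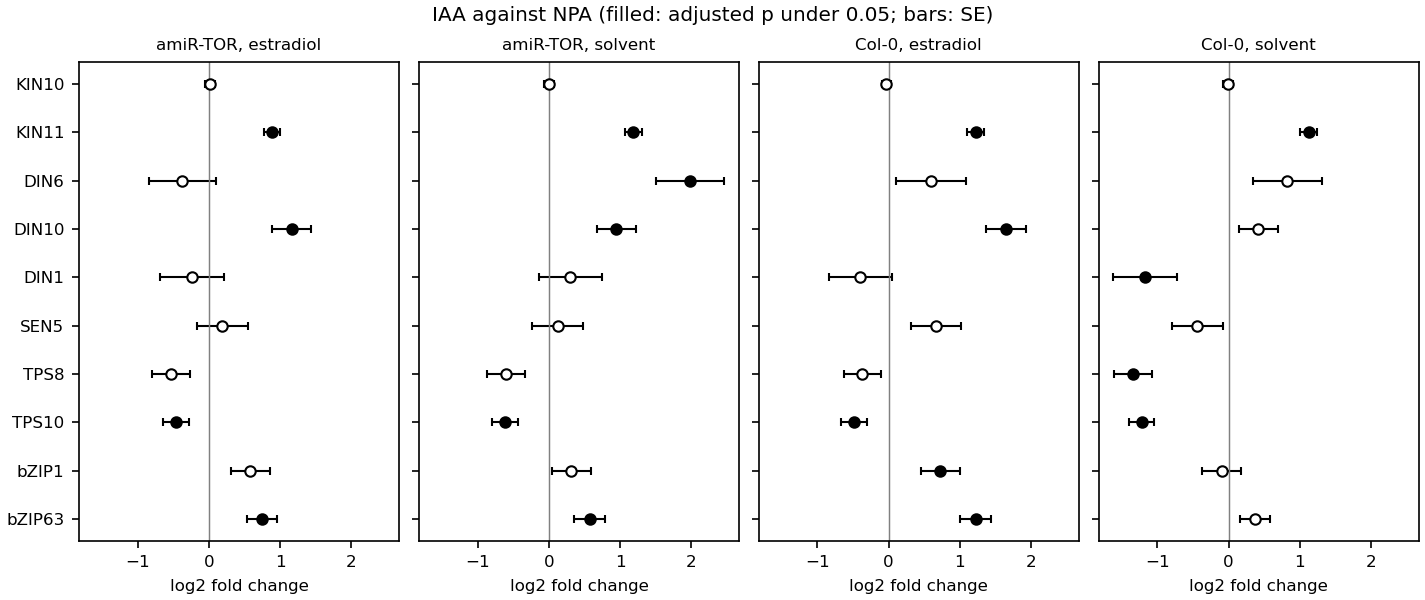
Log2 fold change of IAA over NPA (horizontal axes, with bars of 1 SE) for the 10 genes in amiR-TOR and Col-0, with and without estradiol; filled points have an adjusted p under 0.05. KIN11 lies between 0.89 and 1.22 in the 4 panels and KIN10 next to 0, while TPS10 is negative in all 4.

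Estradiol asks what induction of the artificial microRNA does, with Col-0 showing the inducer alone. In amiR-TOR on IAA, 5 of the 10 were called, all lower (DIN6, DIN1, TPS8, TPS10 and bZIP63), against 18.9% of all genes called and 9.90% called lower. On NPA 4 were called, all lower (DIN10, TPS8, TPS10 and bZIP63), against 33.0% called and 13.0% called lower. In Col-0 on IAA none of the 10 was called, against 1.02% of all genes, also none with the DESeq2 Wald test, and 0 had an unadjusted p under 0.05. In Col-0 on NPA 3 were called, all lower (DIN10, TPS10 and bZIP63), against 21.7% called and 9.30% called lower. The medians of the 10 were -0.57, -0.67, 0.15 and -0.58 on the log2 scale, against -0.01, 0.07, 0.00 and 0.01 for all tested genes. The count of 5 in amiR-TOR on IAA was 1 without replicate 3 on IAA with estradiol or replicates 1 or 3 on IAA, 3 without replicate 2 on IAA with estradiol, and 0 when only the 2 groups were fitted. In amiR-TOR on NPA the fit of the 2 groups alone gave 7 in place of 4. The count of 3 in Col-0 on NPA was 1 without replicate 1 on NPA with estradiol or 2 on NPA and 0 without replicate 3 of either group, and it was 1 with the term for unmapped share. Fits without 1 library gave 0 to 4 there, and the fit of the 2 groups alone gave 5.

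**Figure D3:**
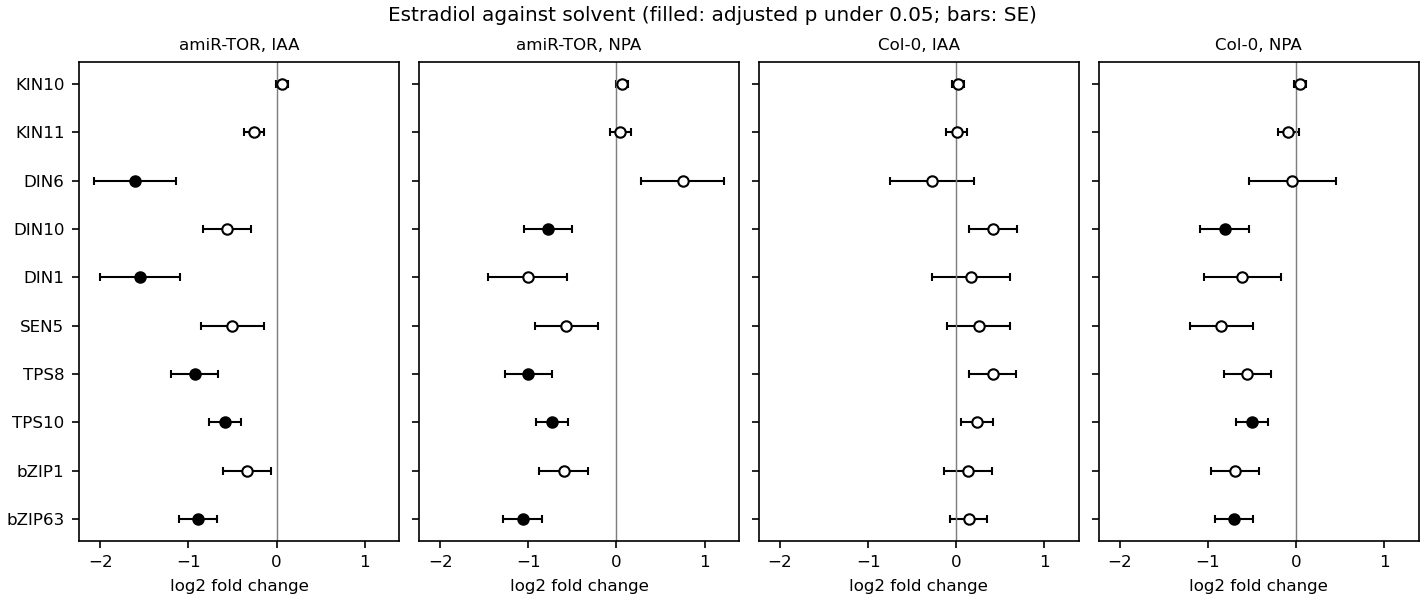
Log2 fold change of estradiol over solvent (horizontal axes, with bars of 1 SE) for the 10 genes in amiR-TOR and Col-0 on IAA and on NPA; filled points have an adjusted p under 0.05. The 8 markers other than the kinases lie at or below -0.33 in amiR-TOR on IAA, and the values of Col-0 on IAA lie between -0.27 and 0.42 with none filled.

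Whether the estradiol effect differed between the genotypes was tested directly. Under IAA 3 of the 10 were called, all more negative in amiR-TOR, against 9.17% of all genes called and 4.73% in that direction. The difference was -1.34 ± 0.38 (SE) for TPS8 (edgeR adjusted p = 0.0320), -0.81 ± 0.25 for TPS10 (0.0469) and -1.03 ± 0.30 for bZIP63 (0.0354). Without the first amiR-TOR library on IAA with estradiol the count became 5. All 3 calls were lost without the filter on low counts (0.0502, 0.0545 and 0.0502) and when only the 4 groups concerned were fitted (0.0910, 0.0852 and 0.106), and TPS10 also with strand disregarded (0.0505) and with the term for unmapped share (0.0502). Of the 12 fits that each left out 1 library, 7 ended the call of TPS8 (without replicates 1 or 3 of Col-0 on IAA or of amiR-TOR on IAA, 2 or 3 of Col-0 on IAA with estradiol, or 3 of amiR-TOR on IAA with estradiol; -1.61 to -1.05). For TPS10 the same 7 and the fit without replicate 1 of Col-0 on IAA with estradiol did so (8 of 12; -0.97 to -0.63). For bZIP63 it was 6 (without replicates 1 or 2 of Col-0 on IAA, 2 or 3 of Col-0 on IAA with estradiol, or 1 or 3 of amiR-TOR on IAA; -1.31 to -0.72). Under NPA none of the 10 was called, against 2.62% of all genes, also none with the DESeq2 Wald test, and 0 had an unadjusted p under 0.05 in edgeR. There the differences between genotypes were 0.04 for DIN10 (interval -0.72 to 0.79), -0.36 for bZIP63 (-0.95 to 0.23), -0.23 for TPS10 (-0.73 to 0.26) and -0.45 for TPS8 (-1.18 to 0.28). Under NPA the effects of estradiol in the 2 genotypes were thus not shown to differ for these genes.

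Set directly against Col-0, amiR-TOR on IAA with estradiol was lower for 5 of the 10, against 37.2% of all genes called and 17.7% called lower, and on NPA with estradiol lower for 3 (TPS8, TPS10 and bZIP63) and higher for 1 (DIN6), against 32.8%. The lower 5 on IAA were DIN10, SEN5, TPS8, TPS10 and bZIP63. Without estradiol 1 was called on IAA, DIN6, against 12.6% of all genes called and 8.52% called higher, and 1 on NPA, TPS10, against 22.1% called and 11.4% called lower. The medians of the 10 were -0.89, -0.49, 0.02 and -0.49 in that order, and those of all genes 0.00, 0.05, -0.01 and -0.03. The count on IAA with estradiol was 3 without replicate 3 of amiR-TOR or 1 of Col-0, 8 without replicate 1 of amiR-TOR, and 3 when only the 2 groups were fitted. The count of 4 on NPA with estradiol was 2 without replicates 1 or 2 of Col-0. On NPA without estradiol it was 4 in place of 1 when only the 2 groups were fitted.

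The remaining interactions added few calls. The change of the IAA effect with estradiol was called for 1 gene in amiR-TOR (DIN6, lower), against 9.57% of all genes called and 7.58% in that direction, and for 1 in Col-0 (DIN10, higher), against 11.2% called and 4.49% in that direction. In amiR-TOR the count was 0 in 8 of the 12 fits without 1 library and when only the 4 groups concerned were fitted. In Col-0 it was 0 without the filter on low counts and with the term for unmapped share, 4 with the DESeq2 Wald test and 5 when only the 4 groups concerned were fitted. Fits without 1 library gave 0 to 3 there, with DIN10 itself lost in 10 of 12, and the 3 came without replicates 2 on IAA or 1 on NPA. The difference between genotypes in the IAA effect was called for none of the 10 with estradiol, against 12.0% of all genes, and for none without, against 2.98%. The interaction of genotype, estradiol and IAA was called for none, against 0.719% of all genes. The unadjusted edgeR p was under 0.05 for 0, 2 and 1 of the 10 in these 3 tests in that order, and the DESeq2 Wald test also called none.

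Across replicates of the same group the 8 markers other than the kinases moved together. Each library's deviation from its group mean on the scale of log2(CPM + 1) was computed, and the deviations of the 28 pairs of markers correlated at r between 0.56 and 0.94 over the 24 libraries, with a median of 0.77. With KIN10 the same markers gave r between -0.28 and 0.15, and with KIN11 between 0.27 and 0.69. KIN10 itself deviated only by -0.10 to 0.10, which left little to correlate. The correlations were not set against those of pairs of other genes. The values for KIN11 depended on single groups. They were -0.01 to 0.48 without amiR-TOR on IAA with estradiol, and 0.54 to 0.90 without Col-0 on IAA with estradiol, where replicate 1 was high for KIN11 and above the group mean for 2 of the 8 markers. These values describe the libraries, since markers of a library share its RNA and its scaling. The widest spread was that of amiR-TOR on IAA with estradiol, where the mean deviation of the 8 markers was 0.65 in replicate 1, 0.25 in replicate 2 and -0.90 in replicate 3; all 8 were above the group mean in replicates 1 and 2, and 0 of 8 in replicate 3. The root mean square deviation was 0.85 there and between 0.19 and 0.45 in the other groups. Unmapped reads made up 25.8% of replicate 1 of that group, 7.65% of replicate 2 and 4.50% of replicate 3, and their part in the spread was not tested. Without that group the pairs of markers still correlated at 0.26 to 0.88, with a median of 0.60.

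**Figure D4:**
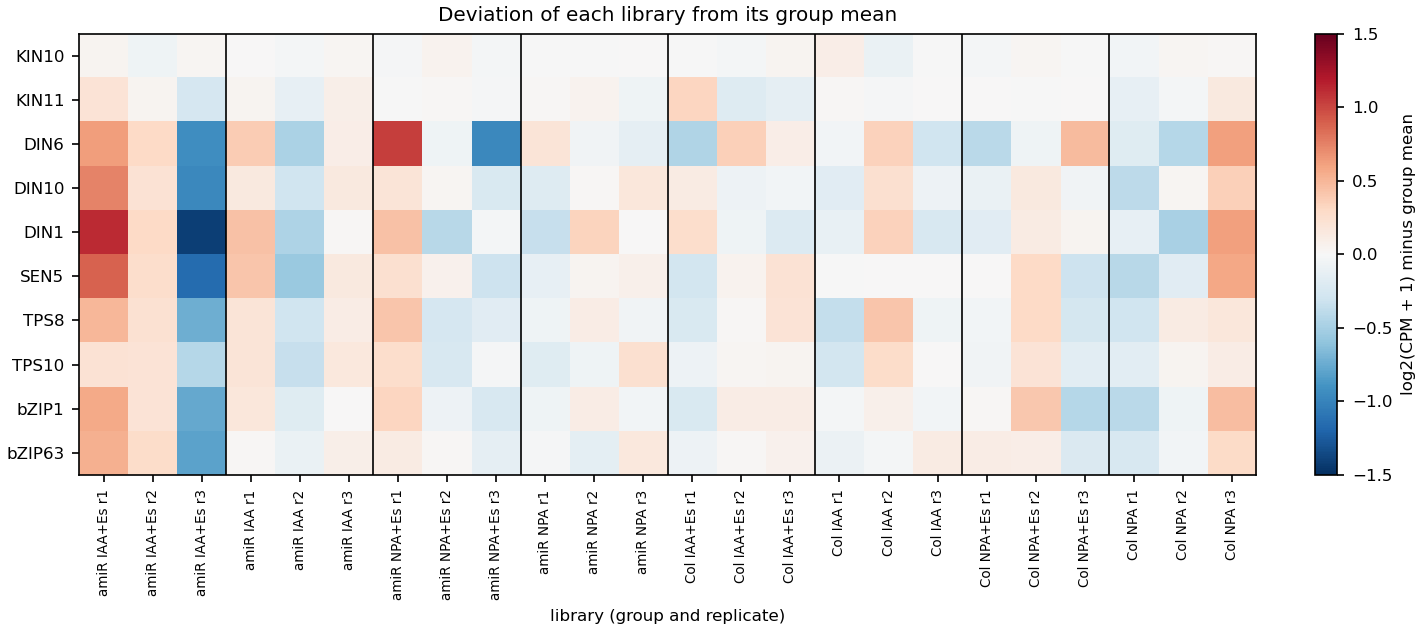
Deviation of each library from the mean of its group on the scale of log2(CPM + 1) (colour), for the 10 genes (rows) and 24 libraries (columns, lines between groups). In amiR-TOR on IAA with estradiol (leftmost 3 columns) the 8 markers other than the kinases are above the mean in replicates 1 and 2 and below it in replicate 3, where KIN10 differs by 0.02.

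The pathway around the 10 genes was examined with wider lists. Of 14 other genes known to be induced by starvation or darkness, 6 fell with estradiol in amiR-TOR on IAA (median -0.86), against 18.9% of all genes called and 9.90% called lower. On NPA 5 fell (median -0.50), against 33.0% called and 13.0% called lower, and 0 were higher in either. In Col-0 0 were called on IAA, against 1.02% of all genes, and 4 fell on NPA (median -0.73), against 21.7% called and 9.30% called lower. In amiR-TOR on NPA the largest falls were those of DRM1 (-1.27 ± 0.25) and DRM2 (-1.15 ± 0.34), dormancy-associated genes, BT2 (-0.83 ± 0.25), a sugar-responsive BTB protein, and MCCA (-0.72 ± 0.25), of leucine breakdown. DRM1 had 220.4, 229.3 and 167.6 CPM on NPA with estradiol against 502.2, 474.9 and 515.0 CPM on NPA in amiR-TOR. With IAA in Col-0 without estradiol 6 of the 14 fell and 1 rose (median -0.87), where 63.3% of all genes were called, so the share was not above that of all genes. The falls were led by DRM2 (-1.49 ± 0.35), IVD (-1.22 ± 0.21) and MCCB (-1.18 ± 0.18), both of leucine breakdown, and DRM1 (-1.20 ± 0.25).

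Of the SnRK1 subunits and partners, 9 others of 10 were tested, KIN12 being too low. In amiR-TOR on NPA estradiol raised 3 and lowered 3 of them (median 0.05), where 33.0% of all genes were called. FLZ6, a zinc finger protein that binds SnRK1, fell by 1.12 ± 0.14, KINGAMMA, a gamma-type subunit, by 0.77 ± 0.15 and KINBETA1, a beta subunit, by 0.56 ± 0.18, while SNF4, the subunit that serves as gamma in plant SnRK1, rose by 0.38 ± 0.08. On IAA 2 were higher and 1 lower, where 18.9% of all genes were called. With IAA in Col-0 without estradiol 5 fell and 0 rose (median -0.37), against 63.3% of all genes called in either direction. Among them were FLZ6 (-1.30 ± 0.14), KINBETA1 (-0.49 ± 0.18), KINGAMMA (-0.49 ± 0.15) and KINBETA2 (-0.39 ± 0.09). KIN11 rose in that comparison.

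Of 9 relatives of the markers (asparagine synthetases, raffinose synthase-like and aluminium-induced-like proteins), estradiol in amiR-TOR raised 1 and lowered 4 on IAA, against 18.9% of all genes called, and raised 3 and lowered 4 on NPA, against 33.0%. In Col-0 it changed 0 on IAA, against 1.02%, and raised 2 on NPA, against 21.7%. ASN2 and ASN3, the other asparagine synthetases of Arabidopsis, rose with IAA in Col-0 without estradiol by 1.56 ± 0.10 and 1.75 ± 0.09, where DIN6 gave 0.83 and was not called. In amiR-TOR on IAA, estradiol gave -0.15 for ASN2, not called, and -0.41 ± 0.09 for ASN3, called, beside -1.61 for DIN6. On NPA estradiol raised ASN2 in amiR-TOR by 0.96 ± 0.10 and in Col-0 by 0.78 ± 0.10. Of 6 other trehalose phosphate synthases, TPS5 alone was called for estradiol in amiR-TOR on NPA. It rose by 0.53 ± 0.13, where TPS8 and TPS10 fell and 33.0% of all genes were called. In Col-0 on NPA TPS5 gave 0.31, not called, and the difference between the genotypes, 0.22, was not called either. With IAA in Col-0 without estradiol TPS5 rose by 1.25 ± 0.13, where 63.3% of all genes were called. TPS11 (-1.14 ± 0.33), TPS9 (-0.52 ± 0.22) and TPS6 (-0.34 ± 0.10) fell in that comparison. Of 7 other C and S1 bZIP genes, 2 rose and 3 fell with estradiol in amiR-TOR on NPA, against 33.0% of all genes called, led by bZIP11 (0.51 ± 0.14), a factor whose translation sucrose represses. In Col-0 on NPA 2 also rose and 3 fell, against 21.7% of all genes called. There bZIP11 rose by 0.66 ± 0.14, and the difference between the genotypes in its estradiol effect, -0.16, was not called. With IAA in Col-0 without estradiol 2 of the 7 rose and 4 fell, where 63.3% of all genes were called. The rises were those of bZIP44 (1.31 ± 0.14) and bZIP11 (0.80 ± 0.14), and bZIP9 (-1.18 ± 0.12) and bZIP10 (-0.69 ± 0.09) fell most. The genes of these lists named with a change were called in the comparison given unless said otherwise, and their differences from the 10 were not tested.

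**Figure D5:**
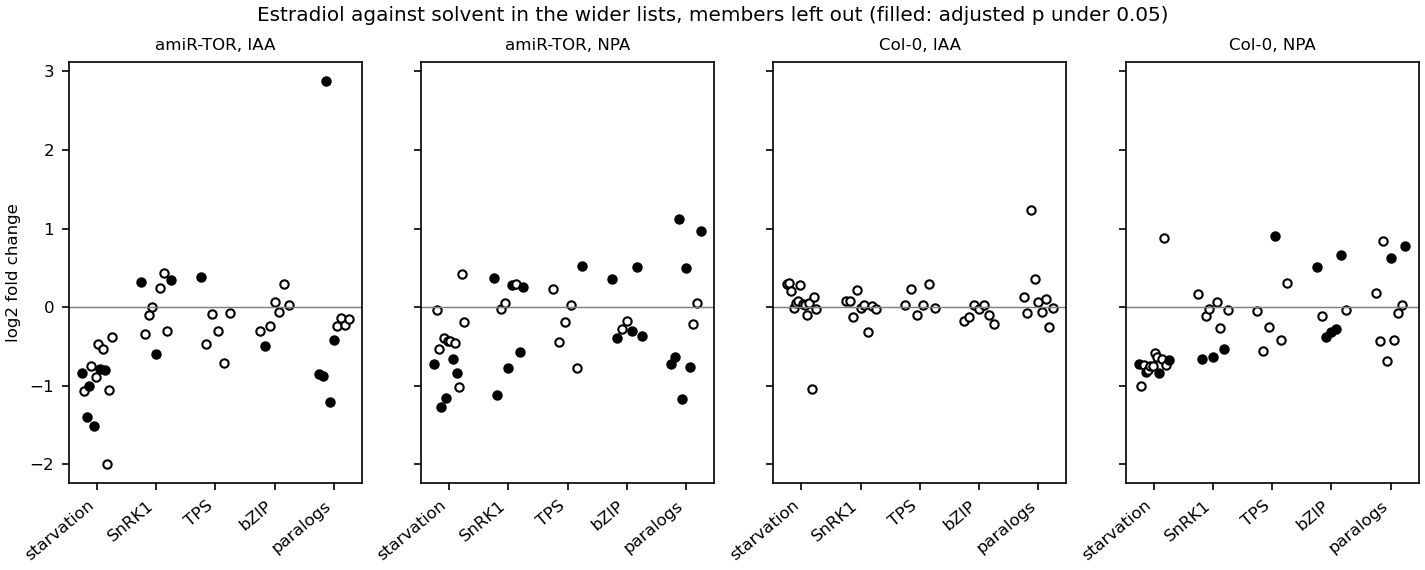
Log2 fold change of estradiol over solvent (vertical axis) for the tested genes of 5 wider lists in amiR-TOR and Col-0 on IAA and on NPA, each point a gene and filled where the adjusted p was under 0.05; the 10 genes themselves are left out. In amiR-TOR the filled points of the starvation list all lie below 0, 6 of 14 on IAA and 5 of 14 on NPA, against 9.90% and 13.0% of all genes called lower.

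The genes whose levels ran most like DIN6 over the 24 libraries, by Pearson's r of log2(CPM + 1) among 19415 genes averaging at least 1 CPM, were PCK2 (phosphoenolpyruvate carboxykinase, r = 0.84), NIT2 (a nitrilase, 0.84), PYD4 (0.83), MIOX4 (myo-inositol oxygenase, 0.80) and PPDK (pyruvate orthophosphate dikinase, 0.79). Of the other 9 genes described here, KIN11 was the closest to DIN6 (0.49) and TPS10 the farthest (-0.36), with DIN10 at 0.40, DIN1 at 0.13 and SEN5 at 0.13. The libraries of a group share their treatment, so these values describe a likeness and carry no test.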

How the data were processed

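RNA-seq libraries from 24 pools of root segments were analysed. The authors deposited raw read counts per locus and strand for each library, unnormalised; the submitters' processing notes name STAR 2.5.2b, DESeq2 and TAIR10, with no roles given. The deposited count column of the strand that held 95.4% to 96.3% of stranded reads was used. The 4 summary lines (unmapped, multimapping, no feature, ambiguous), 6.22% to 50.6% of reads, were left out.

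Counts were filtered with filterByExpr, scaled by TMM (trimmed mean of M values, factors 0.957 to 1.04) and fitted over all 8 groups with edgeR 4.0.16 in R 4.3.3 (quasi-likelihood test, Benjamini-Hochberg adjustment over 21290 loci, threshold 0.05). SEs are the log2 fold change divided by the square root of F. Gene counts of 8589833 to 40494513 per library gave each of the 10 genes at least 145 reads. Python 3.11.15, numpy 2.4.6, pandas 2.3.3, scipy 1.17.1 and matplotlib 3.10.9 served for tables and figures. The fit was tested on simulated data with the same spread for every gene, which does not cover genes as variable as DIN6 and DIN1.

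The alternatives were RLE size factors, no filter, counts without regard to strand, DESeq2 1.42.0, only the groups compared, a replicate block, a term for the 5 libraries with over 20% unmapped reads, and leaving out each library. The 10 genes and all lists were chosen with earlier results of these data known. Genes of the wider lists were named if among the 4 largest called changes of their list in the IAA effect in Col-0 without estradiol, in the estradiol effect in amiR-TOR on NPA or in the genotype by estradiol interaction under NPA, or if related to a marker. Gene positions and sequences are from RefSeq's TAIR10.1, not from the build of the counts. Motif windows cover 27561 protein-coding genes.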

Additional observations from a re-analysis of the deposited data

Results flagged for a closer look

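In 5 cases the effect of a treatment differed between conditions by a direct test of the difference. The effect of IAA on DIN6 in amiR-TOR was smaller with estradiol than without, by -2.35 on the log2 scale. The effect of IAA on DIN10 in Col-0 was larger with estradiol than without, by 1.23. Under IAA the effect of estradiol was more negative in amiR-TOR than in Col-0 for TPS8 (-1.34), TPS10 (-0.81) and bZIP63 (-1.03). None of these 5 differences stayed called throughout: the call was lost in 8 of the 12 fits without 1 library for DIN6, 10 for DIN10, 7 for TPS8, 8 for TPS10 and 6 for bZIP63, and in each case under at least 1 other alternative as well.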

How the results depend on the processing

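Of 190 values (10 genes in 19 comparisons), 46 were called, 20 of these kept sign and call under every alternative run, 26 lost the call under at least 1 (24 of them without some single library) and 0 changed sign. A further 30 were called only under an alternative, and 114 under none, of which 42 took another sign somewhere. Calls were lost for 15 values when only the groups compared were fitted, 9 without the filter, 9 with the term for unmapped share, 7 with the replicate block, 3 with strand disregarded, 0 with RLE size factors and 0 with DESeq2. The cause was not tested.

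Counts of the 10 genes called that moved by over 1.5 times were as follows. With only the groups compared, the IAA effect in amiR-TOR with estradiol had 1 (4 in the fit reported), the estradiol effect 5 in Col-0 on NPA (3), 7 in amiR-TOR on NPA (4) and 0 in amiR-TOR on IAA (5), the genotype difference 4 on NPA (1) and 3 on IAA with estradiol (5), the genotype by estradiol interaction under IAA 0 (3), and the IAA by estradiol interaction 5 in Col-0 (1) and 0 in amiR-TOR (1). With the term for unmapped share, the IAA effect in Col-0 with estradiol had 3 (5), the estradiol effect in Col-0 on NPA 1 and the IAA by estradiol interaction in Col-0 0. Without the filter the last 2 had 1 and 0, and the genotype by estradiol interaction under IAA 0. With DESeq2 the IAA by estradiol interaction in Col-0 had 4.

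In no comparison did the deviations of same-numbered replicates correlate at over 0.1 in every pair (in the IAA effect in Col-0 without estradiol the 3 correlations were 0.257, 0.310 and 0.038), so the numbers were not treated as pairing the samples. That rule cannot exclude a pairing, since the labels do not say whether replicates came from separate experiments. With the replicate block the estradiol effect in Col-0 on NPA had 1 of the 10 called and the IAA by estradiol interaction in Col-0 had 0. The 7 calls lost with it were those of DIN10 for estradiol in Col-0 on NPA (edgeR adjusted p = 0.0525) and for the IAA by estradiol interaction in Col-0 (0.0618), DIN6 for genotype on NPA with estradiol (0.0851), SEN5 for genotype on IAA with estradiol (0.0564), and TPS10 for IAA in amiR-TOR with estradiol (0.0597), for estradiol in Col-0 on NPA (0.0643) and for the genotype by estradiol interaction under IAA (0.0650). The lists of lost calls given gene by gene in the Results leave out these 7 losses.

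Among all genes, DESeq2 called 574 for estradiol in Col-0 on IAA (218 in the fit reported), 1069 for the genotype by estradiol interaction under NPA (558), 1259 for the genotype by IAA interaction without estradiol (634) and 373 for the interaction of all 3 factors (153). With only the groups compared, estradiol in Col-0 on IAA gave 68, the genotype by estradiol interaction under IAA 1206 (1952) and the IAA by estradiol interaction in Col-0 1533 (2387). With the term for unmapped share, the genotype by IAA interaction without estradiol gave 1100. The interaction of all 3 factors uses all groups, so fitting only the groups compared changes nothing there.

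Leaving out 1 library at a time moved the count of the 10 between 0 and 4 for estradiol in Col-0 on NPA, 1 and 7 in amiR-TOR on IAA, 0 and 1 for the genotype difference on IAA, 2 and 4 on NPA with estradiol and 3 and 8 on IAA with estradiol, 0 and 5 for the genotype by estradiol interaction under IAA, and 0 and 3 (Col-0) or 0 and 1 (amiR-TOR) for the IAA by estradiol interaction. Among all genes the ranges were 2043 to 5294 for estradiol in Col-0 on NPA, 58 to 746 in Col-0 on IAA, 2370 to 3859 in amiR-TOR on IAA, 2853 to 4709 for the genotype difference on NPA and 1494 to 2577 on IAA. They were 294 to 634 for the genotype by estradiol interaction under NPA and 1135 to 1956 under IAA, 1208 to 3608 for the IAA by estradiol interaction in Col-0 and 1265 to 2119 in amiR-TOR, 153 to 1400 for the genotype by IAA interaction without estradiol and 1498 to 3001 with it, and 89 to 238 for all 3 factors.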
